A study of Mus musculus with 16 samples.

Results

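CD4 T cells of the spleen were compared at 5 h and at 2 h after interferon alpha (IFNα) was given to the mouse, with 2 arrays at each time, so 4 of the 16 arrays of the series carry the comparison. The arrays were chosen by their titles. The series asks how far interferon-stimulated genes (ISGs) need the receptor subunit IFNAR1 and the kinase Tyk2. All T cells came from male 7-week-old B10.Q/J mice, which carry a Tyk2 mutation that arose naturally, and were sorted as TCRB+ CD4+ CD8- cells. The treated mice had received 10000 units of IFNα under the skin. A vehicle pair from the same strain served as the untreated level, with array 1 taken at 2 h and array 2 at 5 h. The title of vehicle array 1 begins with a code for B cells, while its cell label names CD4+ T cells, and its T cell markers and B cell markers lay at the levels of the other T cell arrays (below). Peritoneal macrophages (ICAM2+ F4/80+) of B10.Q/J mice, with 2 arrays each for vehicle, 2 h and 5 h, were used to set the T cells against another cell type. The titles of 5 of these 6 arrays carry a spleen code, while the source label gives the peritoneal cavity for all 6, and all 13 peritoneal macrophage markers lay above the array median in each. Every one of these groups carries the strain's Tyk2 allele, and no T cells with another Tyk2 were measured. Whether both arrays of a pair stand for different mice is not stated, so p-values cover the spread between these samples alone, which may be technical.

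Type I interferon acts through a receptor made of IFNAR1 and IFNAR2, which carry the kinases Tyk2 and Jak1. These phosphorylate transcription factors, Stat2 among them, which join Irf9 and bind the interferon-stimulated response element (ISRE) before antiviral genes. STAT3 and related factors bind sites of another form (GAS), found near genes such as Socs3 and Pim1. Usp18 and the SOCS proteins dampen the signal, and many ISG transcripts are short-lived.

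Levels are log2 of the deposited array intensity, and differences are log2 differences with the standard error (SE) of a limma fit to the 6 T cell arrays. Adjusted p-values are Benjamini-Hochberg values over the 10112 genes tested, with 0.05 as the threshold for a call. All 10 measured T cell markers, Cd3e and Cd4 among them, lay above the array median in all 6 T cell arrays, with a mean level between 11.69 and 11.86. The mean of 9 B cell markers lay between 6.55 and 6.77 and that of 13 neutrophil markers between 6.06 and 6.23. The 2 h array 1 stood apart. Over the genes tested its correlation with the other 5 T cell arrays was 0.957 to 0.972, against 0.987 to 0.994 among those 5. The SD of the difference between the arrays of a pair was 0.29 at 2 h, 0.136 at 5 h and 0.145 for vehicle.

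Macrophage genes were high in the 2 h T cell arrays and have to be set apart before the comparison is read. The source of this signal was not tested, and it is called macrophage RNA below. Lyz2, the lysozyme of myeloid cells, measured 7.34 and 7.67 in the vehicle arrays, 12.20 and 10.02 at 2 h, and 7.40 and 7.35 at 5 h. Both 2 h arrays were high, array 1 more so, and the 5 h arrays were at the vehicle level. Fn1, fibronectin, which peritoneal macrophages make in large amounts, measured 11.93 and 9.43 at 2 h and 7.11 and 6.69 at 5 h. The differences at 5 h against 2 h were -3.73 ± 0.579 for Lyz2 and -3.78 ± 0.685 for Fn1, with adjusted p = 0.201 and 0.325 in limma. Neither passed, since the arrays of the 2 h pair differed so much from each other. Alox15, a lipoxygenase, and Prg4, lubricin, both known from resident peritoneal macrophages, differed by -2.39 ± 0.645 and -2.18 ± 0.592.

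The whole marker lists were high in the same arrays. The mean of 19 macrophage and monocyte markers was 7.24 and 7.08 with vehicle, 8.65 and 7.58 at 2 h, and 7.25 and 7.23 at 5 h, against 12.56 and 12.55 in macrophages at 2 h. At 2 h, 15 of the 19 lay above the array median in array 1 and 8 in array 2, against 5 in each 5 h array. The mean of 13 peritoneal macrophage markers was 8.74 and 7.47 at 2 h and 6.97 and 6.91 at 5 h, while that of 10 markers of splenic red pulp macrophages stayed between 7.16 and 7.36 in all 6 arrays. The share of macrophage signal in an array, set as the median over the 19 markers, was 3.36% and 0.612% at 2 h and 0.358% and 0.341% at 5 h. Single markers gave from 1.47% to 31.0% in 2 h array 1, the highest from Lyz2. A gene is called macrophage-high below where its vehicle level in macrophages exceeded that in T cells by more than 2. Of the 272 such genes tested, both 5 h arrays lay below both 2 h arrays for 91 (33.5%) and above them for 33 (12.1%). The shares of all genes tested were 15.6% and 24%. The median difference of the 272 was -0.09. Only 272 of 758 macrophage-high genes passed the filter on level. Some of them, Fn1, Wfdc17 and Thbs1 included, lay above the array median only at 2 h and so were tested through those arrays.

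**Figure D1:**
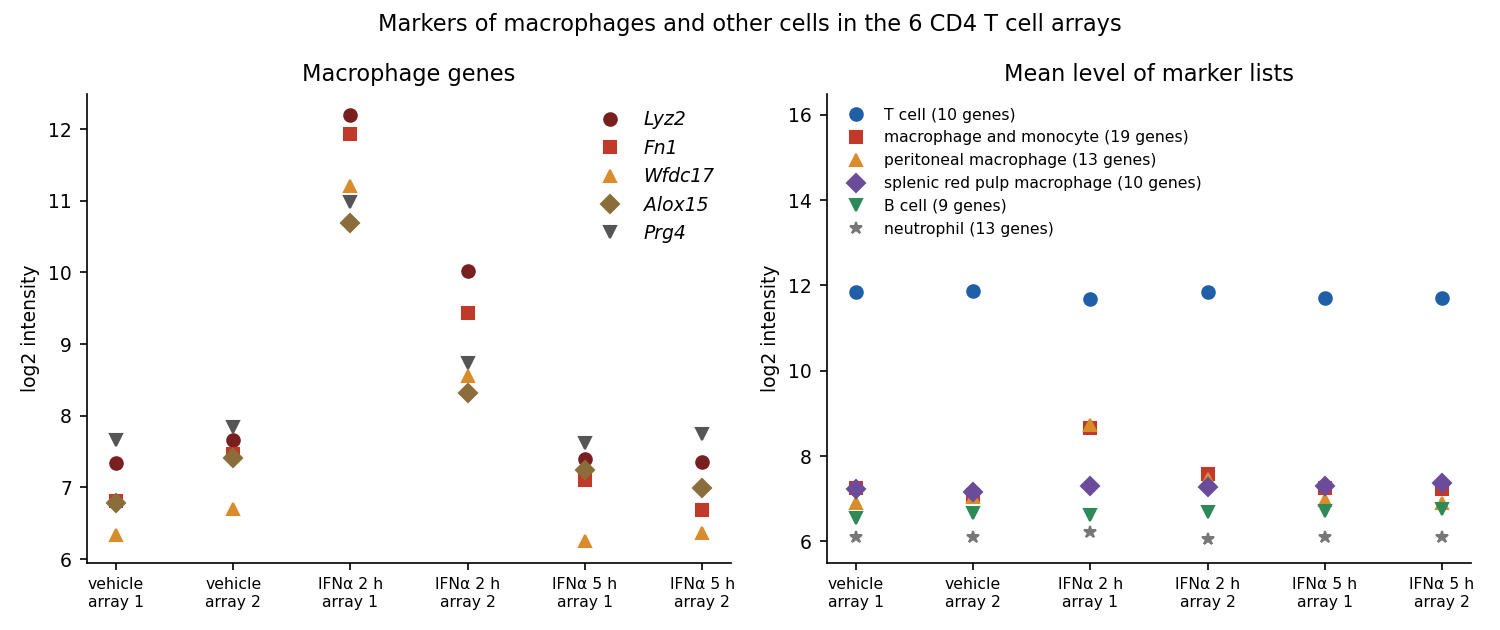
Left, the log2 intensity of 5 macrophage genes in each of the 6 CD4 T cell arrays. Right, the mean log2 intensity of 6 marker lists in the same arrays, with the number of genes in each list. The macrophage genes were high in 2 h array 1 and less so in 2 h array 2, with Lyz2 at 12.20 and 10.02, and the T cell list stayed between 11.69 and 11.86.

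Neb rose from 2 h to 5 h and was the 1 gene called of 10112 (0.00989%). Neb encodes nebulin, a giant protein of the thin filaments of skeletal muscle. It measured 7.34 and 7.32 with vehicle, 7.53 and 7.30 at 2 h, and 8.93 and 8.77 at 5 h. The 2 h arrays were at the vehicle level and both 5 h arrays were above all others. Genes were tested only where at least 2 arrays lay above their own median, and Neb passed through its 5 h arrays. Its levels with vehicle and in 2 h array 2 were below the array medians (7.44 to 7.47). In 2 h array 1 it was just above the median of 7.49. With no filter Neb was still called. The rise was 1.43 ± 0.109, or 2.70-fold, with a 95% interval of 1.18 to 1.69 and adjusted p = 0.022 in limma. Against vehicle, the 5 h level was 1.52 higher (limma, adjusted p = 0.00731). In B10.Q macrophages the mean level was 6.70 with vehicle, 6.62 at 2 h and 6.62 at 5 h. The change in T cells exceeded that in macrophages by 1.43 ± 0.14 (limma on 12 arrays, adjusted p = 0.00343). Neb was the 1 gene of 11161 (0.00896%) called with a higher change in T cells.

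The call of Neb rested on few arrays. It was lost without either vehicle array, without either 5 h array and in a fit of only the 4 arrays compared, and a filter at the 70th percentile left the gene untested, while without 2 h array 1 the rise was 1.54 with adjusted p = 0.000446 in limma. After subtraction of macrophage RNA at the median share the rise was 1.42 (adjusted p = 0.0372), and at the much larger share given by Lyz2 alone it was 1.28 (adjusted p = 0.239). Net of the difference between the vehicle arrays it was 1.45, and no gene was called in that contrast in limma, where 206 (2.04%) had an unadjusted p under 0.05.

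**Figure D2:**
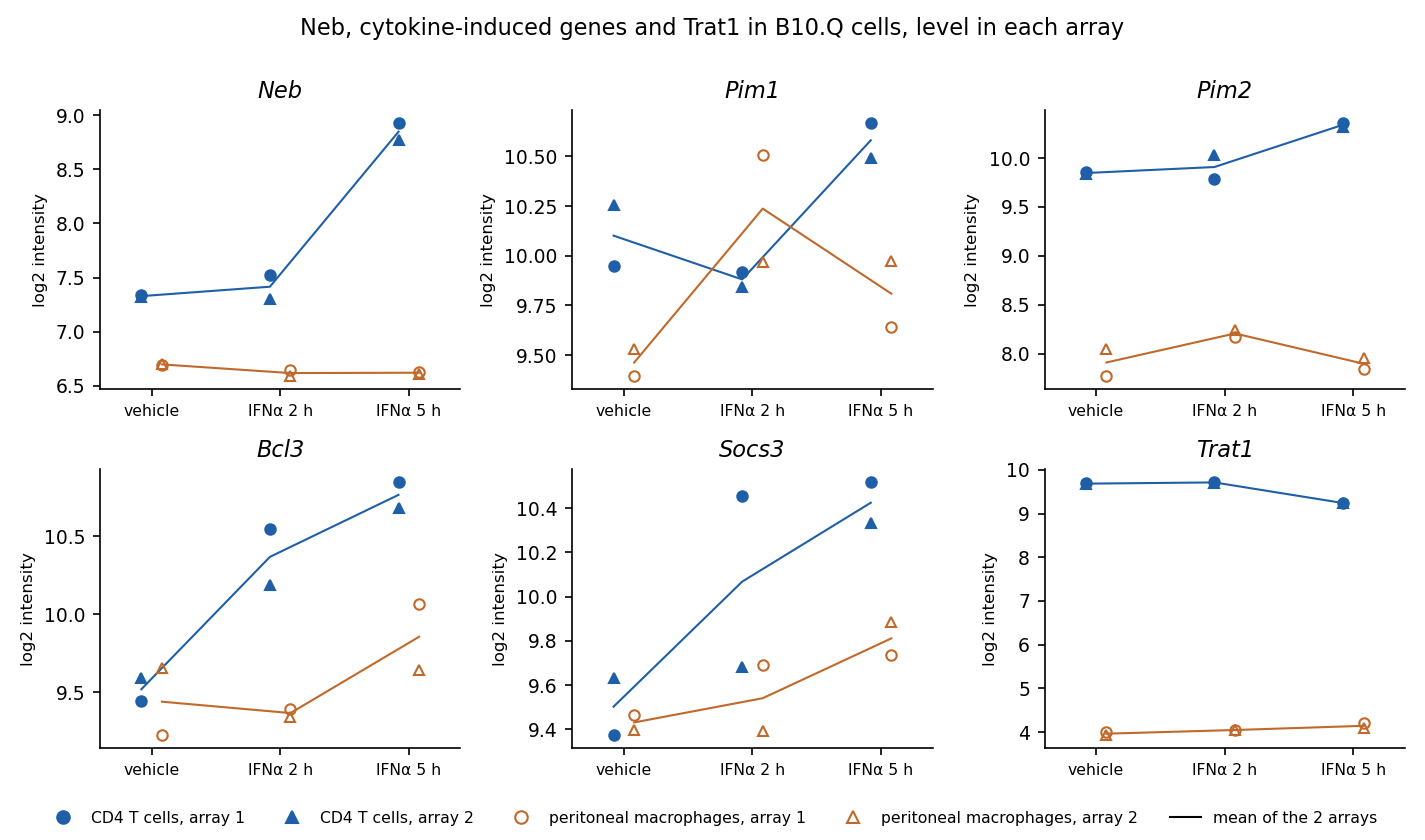
Log2 intensity of 6 genes in each array of B10.Q CD4 T cells (filled) and peritoneal macrophages (open) by group; circles are array 1, triangles array 2, and lines join the means of the 2 arrays. Each panel has its own vertical scale. Neb stood at 8.93 and 8.77 at 5 h in T cells and at 7.53 and 7.30 at 2 h, with macrophage means of 6.62 at both times.

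No gene was called lower at 5 h (0 of 10112; limma). Unadjusted p-values under 0.05 were reached by 996 genes (9.85%), 401 lower at 5 h (3.97%) and 595 higher (5.88%). Both 5 h arrays lay below both 2 h arrays for 1576 genes (15.6%) and above them for 2427 (24%). These are the shares against which the lists below are read. The median difference over all genes tested was 0.03.

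Of the 28 genes called higher at 2 h against vehicle, a choice made on the same 2 h arrays, 27 had both 5 h arrays below both 2 h arrays, and none passed the test of 5 h against 2 h. Ifit1, an antiviral protein that binds foreign RNA caps, had the largest difference outside the macrophage-high genes. It measured 6.67 and 6.87 with vehicle, 12.41 and 11.62 at 2 h, and 9.09 and 9.68 at 5 h. Both 5 h arrays were below both 2 h arrays and still above both vehicle arrays. The difference was -2.63 ± 0.276 (adjusted p = 0.0695 in limma), a level 6.20-fold lower. Rsad2, viperin, which makes a chain-ending nucleotide, measured 6.08 and 5.69 with vehicle, 8.80 and 8.19 at 2 h, and 6.27 and 6.50 at 5 h. Both 5 h arrays were far below the 2 h arrays and just above the vehicle arrays, with a difference from 2 h of -2.11 ± 0.215 (adjusted p = 0.0695 in limma). Rsad2 lay above the array median only at 2 h and was tested through those arrays, so its direction is no independent evidence. Its vehicle and 5 h levels were near or below the lower quartiles of those arrays (6.30 to 6.33).

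The sequences before the start sites of such genes are shown because the core of the ISRE lies in them. RefSeq promoters of GRCm38.p6 were searched in the 250 bases before each start for TTTC, any 2 bases and TTTC again, on both strands. The core was found in 2.98% of all 32851 windows and in the windows of 3.14% of the 8133 tested genes matched. Of the 28 genes called higher at 2 h against vehicle, 20 were matched and 9 (45.0%) held it, among them Ifit1, Rsad2, Ifi213, Ifi214, Cxcl10, Slfn8 and Gm12250. A match is a description and not a measured binding site. In the 4 sequences below, 5′ to 3′ on the strand of the gene, capitals mark the core. Ifit1 lies at chr19:34640639-34640888 (plus strand), Rsad2 at chr12:26456453-26456702, Ifi213 at chr1:173599273-173599522 and Ifi214 at chr1:173535958-173536207 (all minus strand).
Ifit1: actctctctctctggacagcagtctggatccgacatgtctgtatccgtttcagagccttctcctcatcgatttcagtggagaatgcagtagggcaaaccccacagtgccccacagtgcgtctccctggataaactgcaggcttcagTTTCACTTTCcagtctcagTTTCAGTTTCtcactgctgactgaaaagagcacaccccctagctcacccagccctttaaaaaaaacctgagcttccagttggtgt
Rsad2: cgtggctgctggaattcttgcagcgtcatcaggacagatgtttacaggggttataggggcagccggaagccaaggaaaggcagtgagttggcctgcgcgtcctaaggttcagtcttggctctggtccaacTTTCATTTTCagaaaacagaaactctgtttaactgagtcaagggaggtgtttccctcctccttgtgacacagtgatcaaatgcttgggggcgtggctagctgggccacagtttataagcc
Ifi213: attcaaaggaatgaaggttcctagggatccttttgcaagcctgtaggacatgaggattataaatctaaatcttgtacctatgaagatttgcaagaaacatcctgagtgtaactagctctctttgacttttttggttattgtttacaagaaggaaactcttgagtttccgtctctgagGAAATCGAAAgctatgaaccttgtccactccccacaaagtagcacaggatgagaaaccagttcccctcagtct
Ifi214: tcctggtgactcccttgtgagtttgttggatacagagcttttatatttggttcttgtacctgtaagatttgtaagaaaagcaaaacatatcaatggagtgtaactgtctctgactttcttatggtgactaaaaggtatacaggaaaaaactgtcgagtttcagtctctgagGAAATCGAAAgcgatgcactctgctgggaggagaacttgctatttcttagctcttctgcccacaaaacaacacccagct
Ifit1 holds 2 cores, which end 94 and 75 bases before the start, and Rsad2 holds 1, which ends 110 bases before it. The single cores of Ifi213 and Ifi214 end 63 and 69 bases before the start, and the windows of these related genes are 61.3% identical in a global alignment. No core was found in the window of Cmpk2.

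The genes differed in how much of the 2 h difference was left at 5 h. For the 28 genes called higher at 2 h against vehicle (0.277% of 10112), the difference from vehicle at 5 h was set over that at 2 h, both as log2 differences of group means. Both 5 h arrays lay below both 2 h arrays for 27 of the 28, with a median difference of -0.77. These genes were chosen on the 2 h arrays, so this count is no independent evidence of direction. The median part left at 5 h was 45.9%. Ifi214, a PYHIN family protein of the nucleus, kept 2.85%, Rsad2 19.2%, the chemokine Cxcl10 22.9% and Mx2, a dynamin-like antiviral GTPase, 23.9%. Usp18, which removes the ISG15 tag from proteins and dampens interferon signalling, kept 43.0%, and Ifit1 49.8%. The transcription factors Irf7 and Irf9 kept 59.4% and 68.5%. Rtp4, a chaperone of membrane receptors, kept 64.1%, Lgals3bp, a secreted glycoprotein, 75.2% and Ifi27l2a, a mitochondrial protein, 97.7%.

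Levels by array show both ends of that range. Ifi214 measured 9.93 and 9.83 with vehicle, 11.86 and 11.10 at 2 h, and 9.95 and 9.91 at 5 h. It was back at the vehicle level at 5 h, with a difference from 2 h of -1.56 ± 0.216. Ifi213, a related gene, measured 12.41 and 11.95 at 2 h and 10.99 and 10.85 at 5 h, above its vehicle levels of 10.46 and 10.32. Both belong to a family of similar genes, whose probes may share sequence. Mx2 measured 5.38 and 5.75 with vehicle, 8.77 and 7.67 at 2 h, and 6.22 and 6.18 at 5 h. Like Rsad2, it lay above the array median only at 2 h, so the parts left for both rest on low vehicle and 5 h levels. Usp18 measured 7.47 and 7.04 with vehicle, 11.12 and 10.24 at 2 h, and 8.67 and 8.79 at 5 h, a difference from 2 h of -1.95 ± 0.268. Cmpk2, a mitochondrial nucleotide kinase, measured 9.81 and 9.05 at 2 h and 7.90 and 7.93 at 5 h, above its vehicle levels of 7.00 and 7.05.

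Rtp4 was still well above vehicle at 5 h. It measured 7.78 and 7.91 with vehicle, 11.43 and 10.95 at 2 h, and 9.95 and 10.03 at 5 h. At 5 h it was still called against vehicle, at 2.14 ± 0.154 (adjusted p = 0.00731 in limma), and with Neb it made up the 2 genes called there (0.0198%). The level was 1.20 lower than at 2 h, which did not pass. Ifi27l2a measured 8.51 and 8.43 with vehicle, 10.28 and 9.73 at 2 h, and 10.13 and 9.80 at 5 h. Its 5 h and 2 h arrays overlapped, with a difference of -0.04 ± 0.188, which turned to 0.24 without 2 h array 1.

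**Figure D3:**
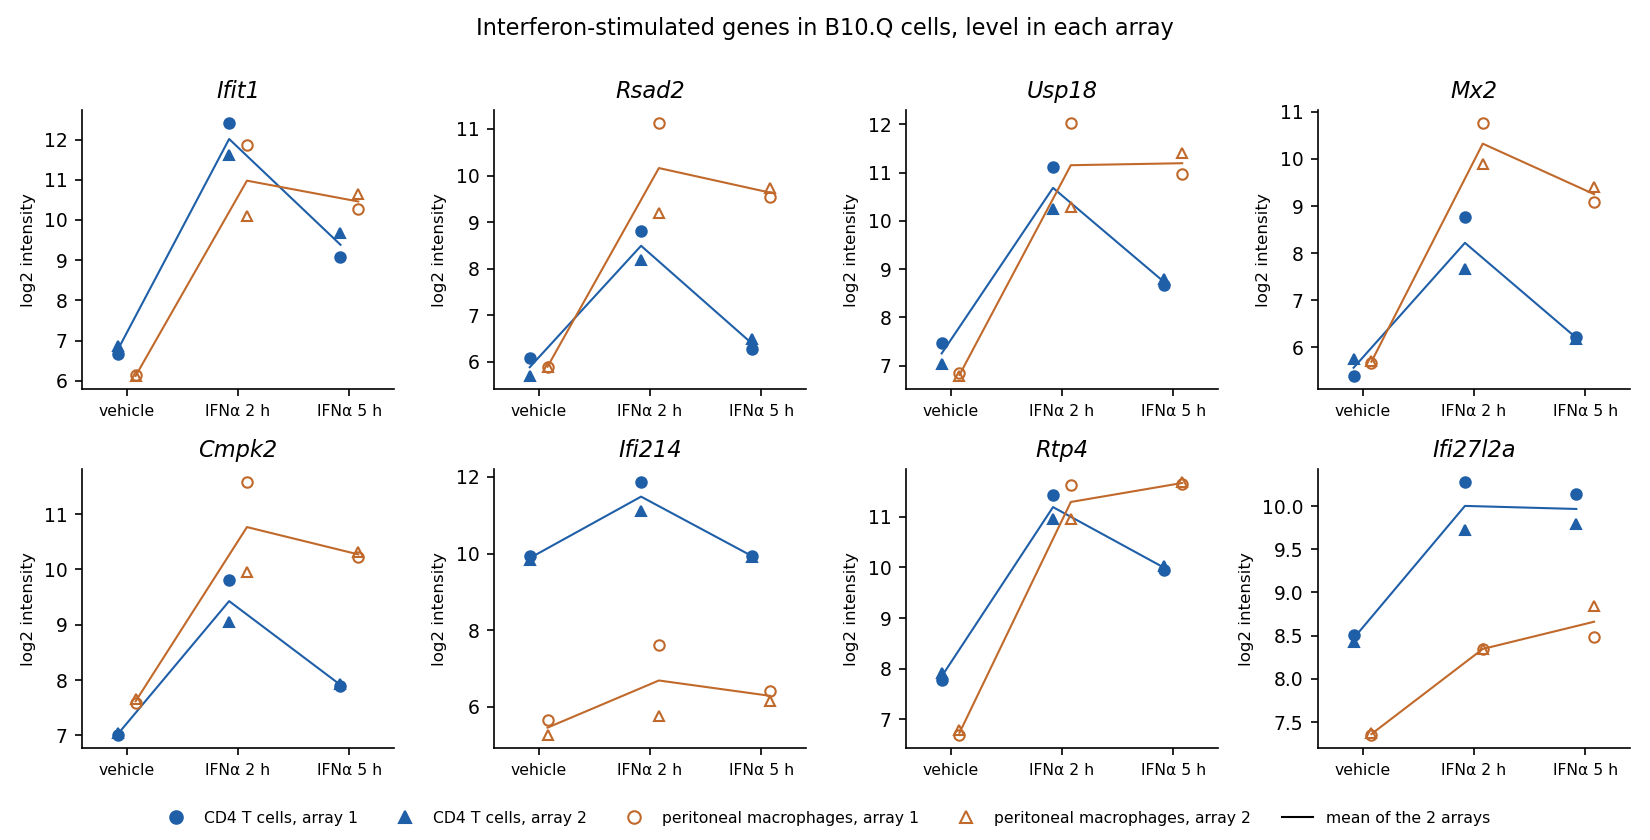
Log2 intensity of 8 ISGs in each array of B10.Q CD4 T cells (filled) and peritoneal macrophages (open) by group; circles are array 1, triangles array 2, and lines join the means of the 2 arrays. Each panel has its own vertical scale. In T cells the 5 h arrays of Ifit1 stood at 9.09 and 9.68, below the 2 h arrays at 12.41 and 11.62, while the 5 h and 2 h arrays of Ifi27l2a overlapped.

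The same genes kept more of their difference in macrophages. For the 28 genes the median part left at 5 h was 94.3% in B10.Q macrophages, from 47.7% for Cxcl10 to 147% for Lgals3bp. The change from 2 h to 5 h was lower in T cells than in macrophages for 27 of the 28, with a median of -0.78 for the difference. None of these differences passed in limma, where the smallest adjusted p was 0.097, and 19 of the 28 had an unadjusted p under 0.05 in that direction, against 10.7% of 11161 genes in either direction. The 28 genes were chosen on the T cell arrays at 2 h, which also enter this contrast. The 2 h macrophage arrays differed from each other as well. Ifit1 measured 11.87 and 10.09 there, with 10.28 and 10.63 at 5 h.

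**Figure D4:**
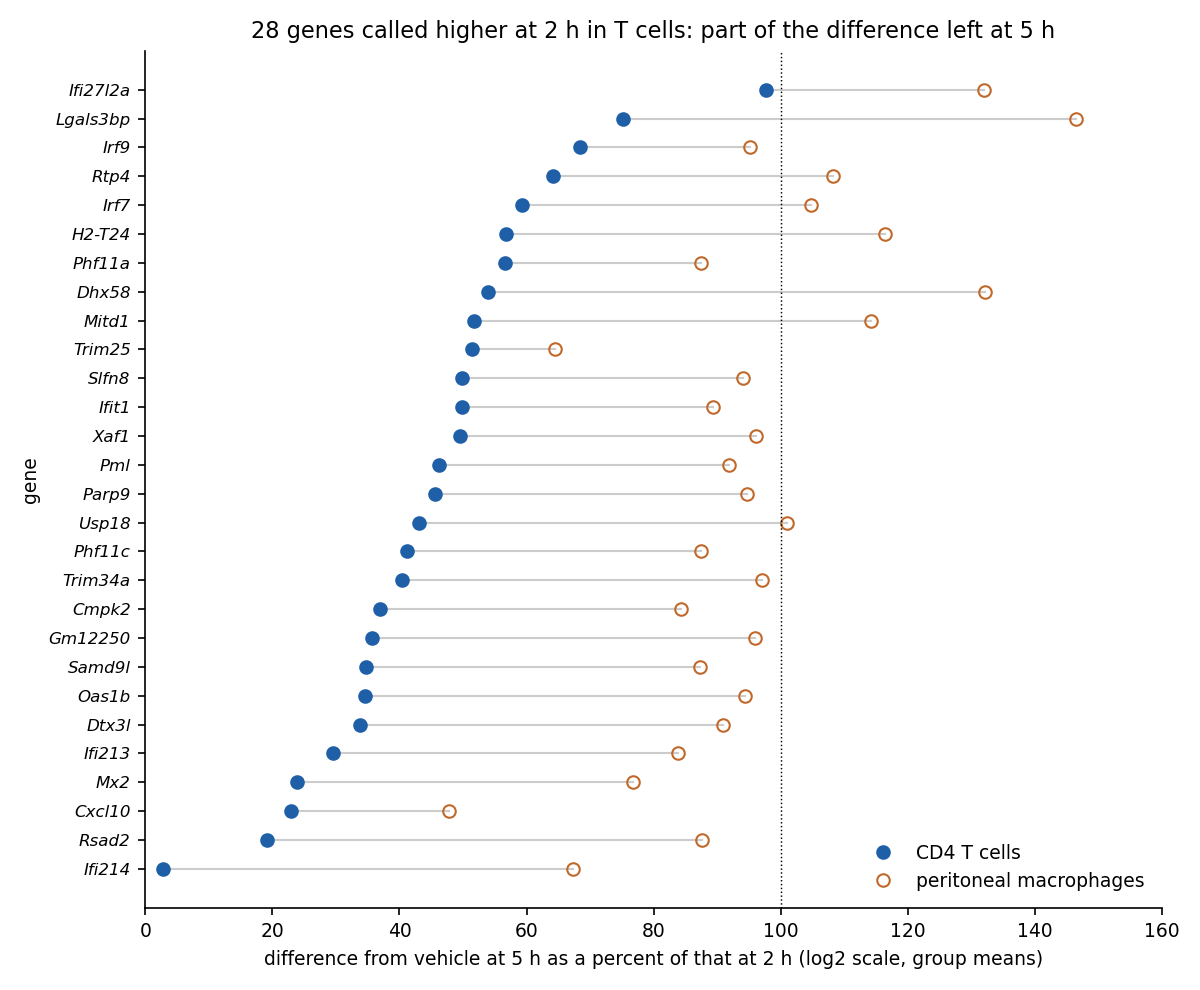
For each of the 28 genes called higher at 2 h in T cells, the difference from vehicle at 5 h as a percent of that at 2 h, on the log2 scale of group means, in CD4 T cells (filled) and peritoneal macrophages (open). The dotted line marks 100%. The T cell values ran from 2.85% for Ifi214 to 97.7% for Ifi27l2a, with a median of 45.9%, and the macrophage values had a median of 94.3%.

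A set of responsive genes chosen by their difference in macrophages was also lower at 5 h in T cells. In B10.Q macrophages 127 of 11161 genes (1.14%) were called higher at 2 h against vehicle, and 100 of them were tested in T cells. That limma fit held all 12 B10.Q arrays. The T cell arrays thus entered its filter and its estimate of the spread, though not the difference, so the choice was not fully independent of them. Both 5 h arrays lay below both 2 h arrays for 80 of the 100 and above them for 1, against 15.6% and 24% of all genes tested. Their median difference in T cells was 0.82 at 2 h and 0.33 at 5 h against vehicle, and -0.44 at 5 h against 2 h. Set against 2 h array 2 alone, both 5 h arrays were lower for 82 and higher for 7, against 36.3% and 39.0% of all genes, with a median of -0.26. After subtraction of macrophage RNA the median was -0.45, and at the Lyz2 share it was -0.49. For 74 of the 100, both 5 h arrays were still above both vehicle arrays, against 21.7% of all genes.

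Most antiviral effectors had lower values at 5 h. Of 33 tested, 26 had both 5 h arrays below both 2 h arrays and 0 had them above. Their median difference was -0.69, and 24 had an unadjusted p under 0.05 in the lower direction, though none was called. Eif2ak2, the kinase PKR that stops translation on double-stranded RNA, measured 9.84 and 8.81 at 2 h and 8.31 and 8.35 at 5 h. Oasl2, of the oligoadenylate synthetase family, measured 9.98 and 8.91 at 2 h and 8.14 and 8.20 at 5 h. Oas1b differed by -1.09 ± 0.146 and Ifit3 by -2.20 ± 0.502. Set against 2 h array 2 alone the median of the list was -0.30, and after subtraction of macrophage RNA it was -0.54. In macrophages the median change of the same genes from 2 h to 5 h was 0.02.

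Nucleic acid sensors and their partners had lower values as well. Of 16 tested, 13 had both 5 h arrays below both 2 h arrays and 0 above, with a median of -0.64 (-0.36 without 2 h array 1). Dhx58 and Ifih1, which belong to the RIG-I-like receptors of viral RNA, differed by -0.80 ± 0.184 and -0.85 ± 0.266. Ifi208, another PYHIN protein, measured 12.09 and 11.53 at 2 h and 10.67 and 10.78 at 5 h, a difference of -1.09 ± 0.18. Tlr7, an endosomal receptor of single-stranded RNA, differed by -0.85 ± 0.183, and it is macrophage-high. The part of macrophage RNA in its difference was not tested. The difference was 2.22 ± 1.30 after subtraction at the Lyz2 share, which in 2 h array 1 was 31.0% against a median of 3.36%.

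Of 21 tested members of the PARP, TRIM and Schlafen families, 18 had both 5 h arrays below both 2 h arrays and 0 above, with a median of -0.58. The Schlafen genes Slfn1, which restrains T cell growth, and Slfn3 and Slfn5 differed by -1.03 ± 0.241, -1.04 ± 0.214 and -1.04 ± 0.374. Slfn1 measured 11.48 and 11.38 with vehicle, 13.03 and 12.16 at 2 h and 11.57 in both 5 h arrays, close to its vehicle level. Parp12 differed by -0.86 ± 0.249. Without 2 h array 1 the median of the list was -0.23. Schlafen genes are near copies of each other, so the probes of one gene may hold signal of another.

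Of 9 GBP and IRG GTPases tested, which attack the vacuoles of intracellular pathogens, 4 had both 5 h arrays below both 2 h arrays and 0 above, with a median of -0.56. Irgm1 measured 11.54 and 10.59 at 2 h and 9.84 and 9.83 at 5 h, a difference of -1.22 ± 0.261. Gm12250, an IRG GTPase, differed by -1.07 ± 0.229. The list depended on 2 h array 1, without which its median was -0.09. Among MHC class I genes, 8 of 18 were lower in both arrays and 4 higher, with a median of -0.07. H2-T24 differed by -0.73 ± 0.203 and Calr, a chaperone of peptide loading, by -0.39 ± 0.10. Calr measured 11.83 and 11.75 with vehicle and 11.49 and 11.47 at 5 h, below both vehicle arrays.

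**Figure D5:**
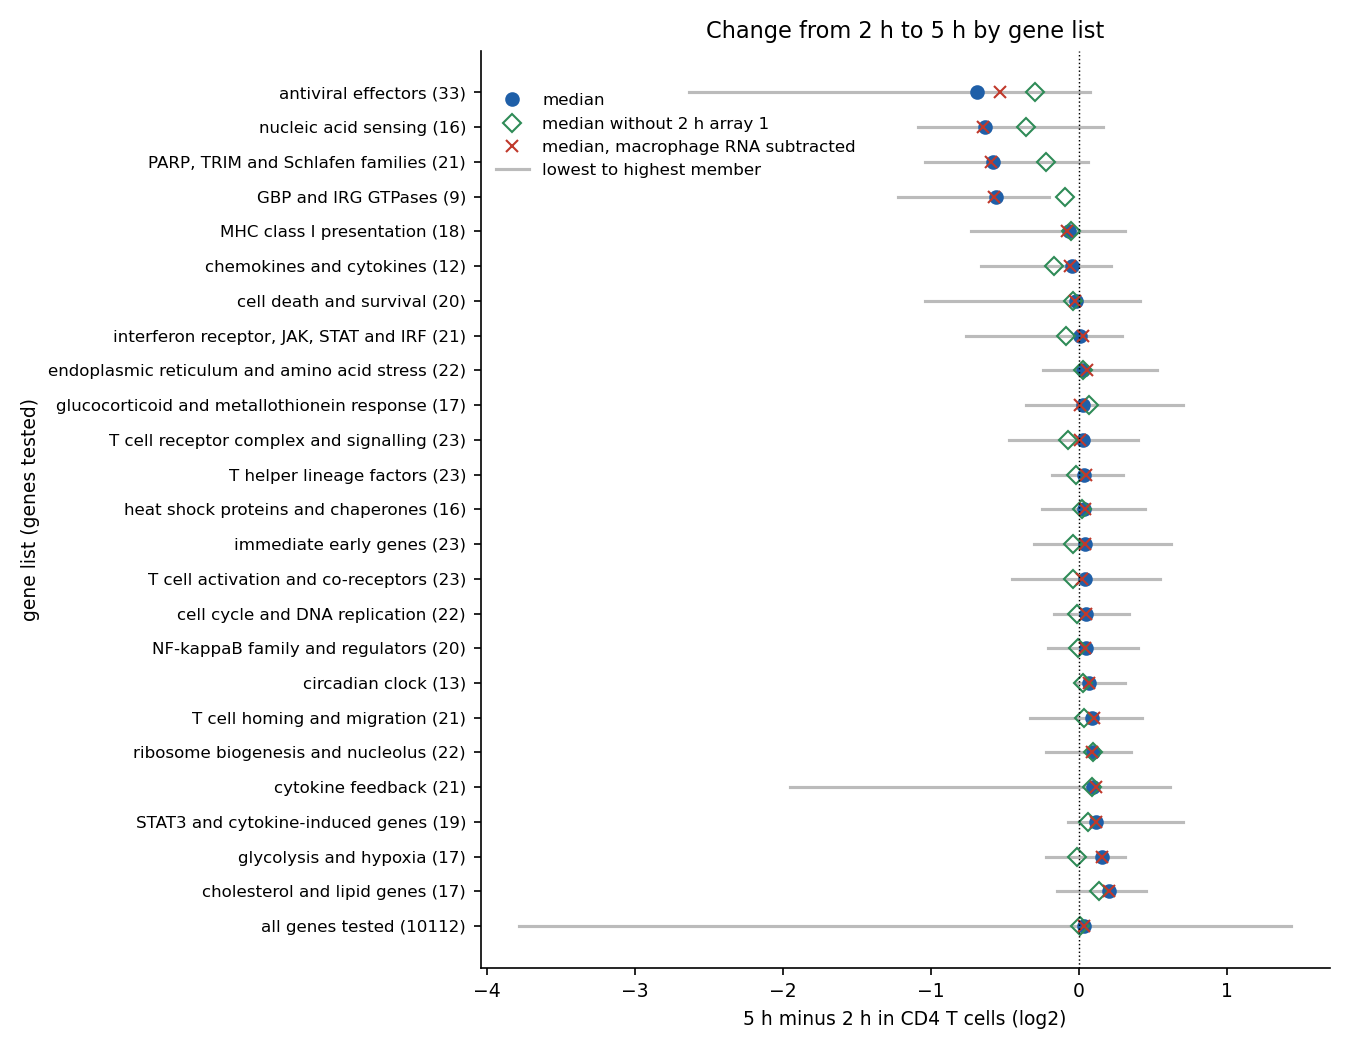
Difference at 5 h against 2 h (log2) in CD4 T cells for 24 gene lists and for all genes tested, with the number of genes tested in brackets. Circles are medians, diamonds medians without 2 h array 1, crosses medians after subtraction of macrophage RNA, and grey lines run from the lowest to the highest member. The antiviral, nucleic acid sensing, PARP, TRIM and Schlafen, and GBP and IRG lists had medians between -0.69 and -0.56, and the others lay between -0.07 and 0.20.

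The receptor and kinase genes of the pathway lay at similar levels at both times. Ifnar1 measured 10.43 and 10.51 at 2 h and 10.55 and 10.47 at 5 h, a difference of 0.05 ± 0.0874. Ifnar2 differed by 0.01 ± 0.101, Jak1 by 0.08 ± 0.0829 and Tyk2 by 0.16 ± 0.164. The sign of these small values turned for Ifnar2 and Tyk2 without 2 h array 1. Of 21 receptor, JAK, STAT and IRF genes tested, 8 were lower in both arrays and 4 higher, with a median of 0.01. Among the lower were the members that interferon itself induces. Irf7, the factor that sustains interferon responses, measured 11.13 and 10.73 at 2 h and 10.05 and 10.29 at 5 h, a difference of -0.76 ± 0.156. Irf9 measured 11.32 and 11.29 at 2 h and 10.87 and 10.98 at 5 h (-0.38 ± 0.0901), Stat2 differed by -0.62 ± 0.244 and Irf1 by -0.45 ± 0.177. The 5 h levels of Irf7 and Irf9 lay above both vehicle arrays, and those of Irf1 (10.57 and 10.48, vehicle 10.47 and 10.50) overlapped them.

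Genes of the cytokine feedback list lay in both directions. Of 21 tested, 4 were lower in both 5 h arrays (19.0%) and 9 higher (42.9%), with a median of 0.09. The shares of all genes tested were 15.6% and 24%, so the lower share was close to that of all genes. The lower were Usp18, Lgals3bp, Pias1 and Ptpn6, while the phosphatases Dusp1 and Dusp5, which act on MAP kinases, differed by 0.61 ± 0.201 and 0.50 ± 0.192. Dusp1 measured 8.77 and 9.47 at 2 h and 9.71 and 9.76 at 5 h, with vehicle at 9.57 and 9.71, so the low value was that of 2 h array 1, and the gene is macrophage-high. Without that array the difference was 0.27. Socs1 differed by -0.12 ± 0.13.

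Genes driven by STAT3 and other cytokine signals were higher at 5 h or overlapped, and none was lower in both arrays. Of 19 tested, 8 (42.1%) had both 5 h arrays above both 2 h arrays, against 24% of all genes tested. The median of the list was 0.12, and none was called. Set against 2 h array 2 alone the median was 0.06. Both 5 h arrays were then higher for 10 of the 19 and lower for 2, against 39.0% and 36.3% of all genes. Pim1, a survival kinase, measured 9.95 and 10.25 with vehicle, 9.92 and 9.84 at 2 h, and 10.67 and 10.49 at 5 h. The 5 h arrays were the highest of the 6, and the difference was 0.70 ± 0.125 (adjusted p = 0.305 in limma). Pim2, a related kinase, measured 9.79 and 10.03 at 2 h and 10.36 and 10.32 at 5 h, a difference of 0.43 ± 0.105. Bcl3, a nuclear partner of NF-kB, measured 9.45 and 9.59 with vehicle, 10.55 and 10.19 at 2 h, and 10.85 and 10.68 at 5 h. It stood above vehicle at both times, by 0.85 and by 1.25, with 0.40 ± 0.137 between them. Socs3, which blocks cytokine receptors, measured 9.37 and 9.63 with vehicle, 10.45 and 9.68 at 2 h, and 10.52 and 10.33 at 5 h. The 2 h arrays of Socs3 differed by more than the means of the times, and the difference of 0.36 ± 0.232 turned to -0.03 without 2 h array 2.

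The 250 bases before the start of Socs3 are shown since they hold the core of a GAS element (TTCNNNGAA, both strands the same), which was found in 7.02% of all windows. They lie at chr11:117969367-117969616 on the minus strand, and the capitals end 145 bases before the start.
Socs3: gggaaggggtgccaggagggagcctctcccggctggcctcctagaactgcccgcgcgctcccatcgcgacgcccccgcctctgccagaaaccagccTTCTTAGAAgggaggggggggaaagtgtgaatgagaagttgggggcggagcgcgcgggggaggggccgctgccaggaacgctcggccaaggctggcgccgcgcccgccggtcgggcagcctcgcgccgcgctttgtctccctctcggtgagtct
No GAS core and no ISRE core was found in the windows of Pim1 or Bcl3, which says only that these letters are not in them.

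No member of the other pathway lists was called. Jund and Ier2, immediate early genes, differed by 0.62 ± 0.178 and 0.46 ± 0.142, and in both 2 h array 1 was the low one (Jund 9.76 against 10.36 in array 2, and 10.66 and 10.70 at 5 h). Ddit4, a stress-induced brake on mTOR, differed by 0.70 ± 0.237, and the transporter Slc7a5 by 0.52 ± 0.126. Ctla4, the inhibitory co-receptor, measured 8.64 and 8.35 at 2 h and 8.97 and 9.12 at 5 h (0.55 ± 0.141). Trat1, an adaptor of the T cell receptor, was lower, at 9.23 and 9.25 at 5 h after 9.72 and 9.70 at 2 h and 9.70 and 9.67 with vehicle, a difference of -0.47 ± 0.083 (adjusted p = 0.296 in limma). The arrays of each time lay close together for Trat1. The median over 23 genes of T cell receptor signalling was 0.03. Ribosome biogenesis genes had 11 of 22 above and 0 below, with a median of 0.09. Cholesterol and lipid genes had 10 of 17 above and 1 below, with a median of 0.20. The cause of these shifts was not tested. A lower level can come from less RNA in each cell or from fewer cells that hold it, which cannot be told apart in sorted bulk cells.

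Against 2 h array 2 alone, with the lone array taken to vary like the other pairs, limma called 27 genes lower (0.267%) and 7 higher (0.0692%) at 5 h. Lyz2 (-2.64) and Fn1 (-2.53), both macrophage-high, had the largest differences among the lower genes. Ifit1 (-2.23, adjusted p = 0.00322), Rsad2 (-1.80, 0.00305), Usp18 (-1.52, 0.00469), Mx2 (-1.47, 0.00375), Cmpk2 (-1.14, 0.00145) and Ifi214 (-1.18, 0.00145) were called lower in that limma fit. The 7 higher were Neb, Skap2, Mid1, Slc35f2, Hs3st3b1, Map3k5 and Sbno2, genes listed here after their values were seen. Sbno2, a transcriptional co-regulator, measured 9.73 and 9.51 at 2 h and 10.13 and 10.07 at 5 h. Skap2, an adaptor of immune cells, measured 7.56 and 7.67 with vehicle, 8.23 and 7.82 at 2 h and 8.81 and 8.51 at 5 h, although it is macrophage-high and the macrophage markers were lower at 5 h. Hs3st3b1, a sulfotransferase of heparan sulfate, was the 1 gene called lower at 2 h against vehicle (0.00989%), at 9.38 and 9.32 after 9.95 and 10.02, and stood at 9.95 and 9.93 at 5 h, back at the vehicle level.

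Pde7b, a phosphodiesterase of cyclic AMP, was called for a lower change in T cells than in macrophages, the 1 gene in that direction (0.00896%). In T cells it measured 6.38 and 5.76 at 2 h and 6.27 and 6.05 at 5 h, below the array median and so outside the T cell fit. In macrophages the mean went from 7.65 at 2 h to 9.79 at 5 h. The difference of the changes was -2.05 ± 0.239 (limma on 12 arrays, adjusted p = 0.0105).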

How the data were processed

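Each of 16 samples was hybridised to 1 Affymetrix gene array for mouse, its RNA amplified by an Ambion kit (per the labels). RMA, run by the authors in Affymetrix Power Tools, summarised the probes (per the submitters' processing notes; versions not given in the sources used here), and a linear intensity was deposited for each probe set. The log2 of the deposited intensity was used without further scaling. Of 24922 probe sets, 21425 had 1 gene symbol, 1399 several and 2098 none. For the 921 of 19752 genes with several probe sets, the one with the highest mean over all arrays was used. Genes above the array median in fewer than 2 of the fitted arrays were left out.

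Differences were tested with limma 3.58.1 in R 4.3.3 (lmFit, eBayes, two-sided) on 6 T cell arrays in 3 groups, which leave 3 residual degrees of freedom, or on 12 B10.Q arrays in 6 groups. Arrays have no read depth, and their number limits the precision. On simulated data for 5 h against 2 h, 82.4% of 2-fold and 46.8% of 1.5-fold changes were recovered among 10112 genes, and 5.66% of calls were false. The simulated noise was independent between arrays, with 1 spread per gene for all groups and 200 changed genes in each draw. In the deposited arrays the 2 h pair differed more than the others (SD of the difference 0.29, against 0.136 at 5 h). The simulation therefore does not give the share of real changes found here. Named genes were called genes outside the macrophage-high group, up to 10 macrophage-high ones, up to 4 members of each list with the largest change, called members, 8 preset genes and, where nothing was called, the 6 with the smallest p. The other genes named, among them those called at 2 h against vehicle and those called without 2 h array 1, were named after their values were seen. The groups, members, gene lists and tests were chosen with earlier results of these data known. Alternatives changed the filter, the scaling between arrays, the variance model, the probe sets, the arrays fitted and the macrophage RNA, which was subtracted linearly at the median share or, chosen after seeing the data, at the share given by Lyz2. Subtracted values were held at or above the lowest intensity of the array.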

Additional observations from a re-analysis of the deposited data

Results flagged for a closer look

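The change from 2 h to 5 h differed between B10.Q T cells and macrophages for 2 genes, by the limma test of the difference itself. Neb had a higher change in T cells, by 1.43, and its level in macrophages lay between 6.59 and 6.70 in all 6 arrays. Pde7b had a lower change in T cells, by -2.05, with macrophage levels of 7.75 and 7.56 at 2 h and 9.80 and 9.79 at 5 h. The call of Pde7b was lost without either macrophage array at 5 h, without T cell array 2 at 5 h (limma, adjusted p = 0.119) and after subtraction of macrophage RNA at the Lyz2 share. Groups of 2 arrays allow no test for a single extreme array.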

How the results depend on the processing

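In simulated arrays of this design, with noise drawn independently for each array, 97.6% of 4-fold changes were recovered, while Ifit1, 6.20-fold lower at 5 h, was not called. Why the deposited arrays gave fewer calls was not tested. Counts are genes called by limma, and the cause of the shifts was not tested. For 5 h against 2 h (1 gene), the count was 3 with no filter, 0 with the filter at the 70th percentile, 3 with array medians subtracted, 7 with all 16 arrays, 0 with the 4 arrays compared alone and 40, all higher, after subtraction at the Lyz2 share. That share was 31.0% in 2 h array 1, far above the 3.36% of the median marker. A gene taken down to the lowest intensity at 2 h then shows as higher at 5 h. Leaving out 1 array gave 0 to 1626, with 34 without 2 h array 1, 1626 without 2 h array 2 and 0 without any one vehicle or 5 h array. The change net of vehicle (0 genes) gave 52 with the replicate block, 31 at the Lyz2 share, and 15 without 2 h array 1 to 422 without 2 h array 2. Without a vehicle array it could not be fitted. T cells minus macrophages (2 genes) gave 1 with the filter at the 70th percentile, 255 at the Lyz2 share and 1 to 579 with an array left out, the last without T cell 2 h array 2. For 2 h against vehicle (29 genes) the count was 50 with all 16 arrays and 44 at the Lyz2 share, and 0, without vehicle array 1, to 1819, without 2 h array 2. For 5 h against vehicle (2 genes) it was 1 with the filter at the 70th percentile, 4 with array medians subtracted, 6 with all 16 arrays, 5 with macrophage-high genes left out, 0 at the Lyz2 share and 0 to 64 with an array left out, the last without either 2 h array. The 44 genes called for 2 h against vehicle at the Lyz2 share were 4 higher and 40 lower at 2 h. The main fit gave 28 higher and 1 lower, and only 4 of its 29 genes were among the 44. Whether same-numbered arrays were paired could not be decided, and the main fits did not pair them. The correlations of their deviations from the group means were -0.065, 0.184 and 0.150. With 2 arrays a group each deviation rests on 1 difference between arrays, and 2 h array 1 stood apart. With the replicate block, Neb kept its call for 5 h against 2 h (limma, adjusted p = 0.028).

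Of 2343 values of 132 named results under the alternatives, 2172 kept direction and call, 10 lost the call, 132 gained it and 29 changed sign. At the Lyz2 share, the values were 2.22 for Tlr7, 2.42 for Rgs2, -0.070 for Gata3, 0.21 for Creld2, -0.0058 for Ifnar1, 2.31 for Phf11a, 3.86 for Fn1, 3.26 for Wfdc17, 4.09 for Alox15, 4.68 for Prg4, 4.11 for Thbs1, 4.37 for Lyz1 and -0.10 for Jak1. These values depend on the size of the share taken off and on the lowest intensity allowed. They are not read as changes of the genes. With 1 array left out, the values ran from the lowest without 2 h array 1 to the highest without 2 h array 2 for Nr1d1 (-0.014 to 0.28), Id3 (-0.10 to 0.66), Pcna (-0.0092 to 0.43), Shmt2 (-0.019 to 0.67), Pgam1 (-0.18 to 0.80), Ifnar2 (-0.087 to 0.10) and Tyk2 (-0.089 to 0.41). They ran the other way for Dnajb4 (-0.55 to 0.053), Ifna5 (-0.21 to 0.18), Ifi27l2a (-0.31 to 0.24) and Socs3 (-0.028 to 0.74). Ifnz (-0.031 to 0.12) and Socs1 (-0.28 to 0.048) turned without 5 h array 1.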
